A study of Homo sapiens with 6 samples.

Results

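The ERK pathway feedback genes are switched on by ERK signalling and restrain it, and 10 of them were followed, namely the dual specificity phosphatases DUSP4, DUSP5 and DUSP6, the Sprouty genes SPRY1, SPRY2 and SPRY4, the Spred genes SPRED1 and SPRED2, the ETS factor ETV5 and PHLDA1. All 10 were taken by gene symbol from the count table of each library, which held them among 56305 genes. The libraries were bulk RNA sequencing libraries of MOLM13, a human acute myeloid leukaemia line that carries FLT3-ITD, an internal tandem duplication that keeps the FLT3 receptor kinase active, and a translocation between chromosomes 9 and 11. Both groups were the same line held for 24 h, with DMSO, the vehicle, in 3 libraries or with 1 μM ZW27941 in 3 libraries. ZW27941 is a PROTAC, a molecule that joins a METTL3 ligand to a ligand of the VHL ubiquitin ligase so that METTL3, the catalytic subunit of the m6A RNA methyltransferase, is degraded. All 6 libraries came from 1 cell line, and no line other than MOLM13 and no further time or dose was analysed here.

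ERK is the last kinase of the RAS, RAF and MEK cascade, which receptors such as FLT3 start. Active ERK raises transcription of immediate early genes within minutes, and then of genes whose proteins act back on the cascade: DUSP proteins remove phosphate from ERK, and Sprouty and Spred proteins act upstream, at the level of RAS and RAF. The RNA levels of these genes are widely used as a readout of ERK output, also in FLT3-ITD leukaemia, and the comparison asked whether that readout moved after 24 h of degrader.

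None of the 10 feedback genes passed the test in either direction. With edgeR's quasi-likelihood test and Benjamini-Hochberg adjustment over all 20399 genes tested, 0 of 10 were higher on ZW27941, where 16.3% of all genes were higher, and 0 of 10 were lower, where 13.8% were lower, so that 30.1% of all genes and no feedback gene had an adjusted p under 0.05. At an unadjusted p under 0.05 the same test gave 2 of the 10, DUSP4 and SPRY1, both with the lower mean on ZW27941, where 39.6% of all genes tested reached it. DESeq2 called 0 of 10, where it called 27.8% of all genes. Of the 10 genes, 8 lay between 10 and 60 CPM (a gene's count relative to the TMM-scaled total of its library), and among the 5763 genes tested in that range 43.4% passed. The median log2 fold change of the 10 genes was -0.017, against -0.0019 over all genes tested. In bulk RNA, a change in RNA per cell and a change in the share of cells that express a gene cannot be told apart.

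The regulatory windows of the genes are shown first, since ERK reaches its targets through a few DNA elements. RefSeq (GRCh38.p14) gave 11 promoter windows, from 250 bases before to 50 bases after a transcription start, for 7 of the 10 genes. Both strands were searched for the ETS site CCGGAAGT, the CRE TGACGTCA, the AP-1 site TGANTCA and the CArG box, which SRF binds with its ETS partners. The ETS site, held by 4.14% of the 35116 promoters, was in 0 of the 11 windows, as were the CRE, held by 1.85% of all promoters, and the CArG box, held by 1.29%. An AP-1 site, held by 7.71% of all promoters, was in 1 window. The bare ETS core GGAA, in 95.5% of all promoters on either strand, was in all 11. DUSP6, whose RNA is among the most used markers of ERK output, is shown as a feedback gene with no match (chr12:89352452-89352751, minus strand). The second start of SPRED2 is the window with AP-1 sites, 2 of them, the first beginning 6 bases before the start (chr2:65366729-65367028, minus strand). The immediate early gene EGR1 (chr5:138465229-138465528, plus strand) and the phosphatase gene DUSP1 (chr5:172771146-172771445, minus strand) are no feedback genes of this set and are shown as examples of a window with a CArG box and of a window with a CRE. Both genes fell on ZW27941, and so did FOS and DUSP2, whose windows held none of the 4 motifs. These genes were chosen with their values known, and a link between a motif and a change was not tested. Sites more than 250 bases before a start and variants of the 4 motifs were not searched. A window without a match therefore does not show that a gene lacks such an element. Sequences run 5′ to 3′ on the gene's strand, and capitals mark matches to the 4 motifs.
DUSP6: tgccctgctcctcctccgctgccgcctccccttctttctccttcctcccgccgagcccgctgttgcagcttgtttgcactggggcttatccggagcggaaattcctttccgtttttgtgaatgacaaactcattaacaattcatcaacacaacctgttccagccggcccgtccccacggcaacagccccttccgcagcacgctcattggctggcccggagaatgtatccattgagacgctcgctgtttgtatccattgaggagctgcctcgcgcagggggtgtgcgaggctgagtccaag
SPRED2 second start: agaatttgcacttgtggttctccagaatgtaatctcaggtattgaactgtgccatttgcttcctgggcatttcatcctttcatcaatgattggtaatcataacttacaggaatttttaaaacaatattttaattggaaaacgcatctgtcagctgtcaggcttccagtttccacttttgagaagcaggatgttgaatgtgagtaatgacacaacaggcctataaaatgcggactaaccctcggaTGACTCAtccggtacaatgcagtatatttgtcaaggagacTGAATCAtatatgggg
EGR1: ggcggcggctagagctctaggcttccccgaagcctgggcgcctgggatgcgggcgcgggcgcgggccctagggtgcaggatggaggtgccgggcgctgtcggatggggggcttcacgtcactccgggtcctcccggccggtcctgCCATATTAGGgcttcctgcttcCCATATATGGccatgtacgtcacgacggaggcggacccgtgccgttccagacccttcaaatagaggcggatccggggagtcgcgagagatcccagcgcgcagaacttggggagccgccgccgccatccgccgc
DUSP1: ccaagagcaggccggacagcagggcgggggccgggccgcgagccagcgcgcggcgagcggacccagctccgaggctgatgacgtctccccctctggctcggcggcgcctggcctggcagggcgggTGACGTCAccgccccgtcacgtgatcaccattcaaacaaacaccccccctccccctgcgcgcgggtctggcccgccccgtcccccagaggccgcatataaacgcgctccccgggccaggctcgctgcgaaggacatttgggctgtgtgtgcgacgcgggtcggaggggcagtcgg
EGR1 had 2 CArG boxes, the first beginning 105 bases before the start, and DUSP1 had 1 CRE, beginning 125 bases before it. These matches describe the letters of the windows and not binding.

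DUSP6 encodes the cytoplasmic phosphatase that is most selective for ERK (chr12:89347232-89353271, minus strand, in GRCh38 with GENCODE annotation, as for all positions of genes here). It had 39.9, 40.9 and 40.8 CPM in DMSO replicates 1 to 3 and 39.2, 39.6 and 40.8 CPM in ZW27941 replicates 1 to 3. The groups overlapped, with 1 ZW27941 library inside the DMSO range. The means were 40.5 ± 0.546 and 39.8 ± 0.811 CPM (SD, n = 3 each), and the log2 fold change was -0.025 (SE 0.029, 95% confidence interval -0.085 to 0.034, edgeR adjusted p = 0.558).

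DUSP4 encodes a nuclear phosphatase of ERK and related kinases (chr8:29333064-29350668, minus strand). Its values were 22.6, 22.4 and 22.3 CPM on DMSO and 21.3, 21.1 and 21.4 CPM on ZW27941. Every ZW27941 library lay below every DMSO library, at 22.4 ± 0.120 against 21.3 ± 0.152 CPM (SD, n = 3 each), with a log2 fold change of -0.078 (SE 0.031, 95% confidence interval -0.14 to -0.013, edgeR adjusted p = 0.0647). The adjusted p missed the threshold, and the value passed it when the libraries were scaled by their upper quartile (log2 fold change -0.10, adjusted p = 0.0166), a scaling that moved the median of all genes to -0.025. Over all 9 alternatives the adjusted p of DUSP4 ran from 0.0166 to 0.186.

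DUSP5 encodes another nuclear phosphatase specific for ERK (chr10:110497838-110511544, plus strand). Its level was low, with 346 to 439 counts per library, and its values were 2.44, 2.42 and 2.42 CPM on DMSO and 2.43, 2.40 and 2.29 CPM on ZW27941. The groups overlapped, and the log2 fold change was -0.031 (SE 0.081, 95% confidence interval -0.20 to 0.14, edgeR adjusted p = 0.812). DUSP5 has a processed pseudogene, DUSP5P1 (chr1:228650241-228651379, plus strand), 1139 bases long and 83.6% identical to the DUSP5 transcript over 1142 aligned bases. DUSP5P1 had more counts than its parent, 788 to 1228 per library, and fell from 7.88 ± 0.235 to 5.47 ± 0.0739 CPM (SD, n = 3 each, log2 fold change -0.52, SE 0.058, edgeR adjusted p = 6.1e-07). How the counting divided reads between the 2 genes is not given in the sources used here, and the log2 fold change of their summed counts, an alternative chosen after seeing the data, was -0.39 (adjusted p = 3.5e-06). Most of the summed counts are those of DUSP5P1, so the sum does not measure DUSP5 alone. Whether reads of DUSP5P1 entered the count of DUSP5 was not tested.

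**Figure D1:**
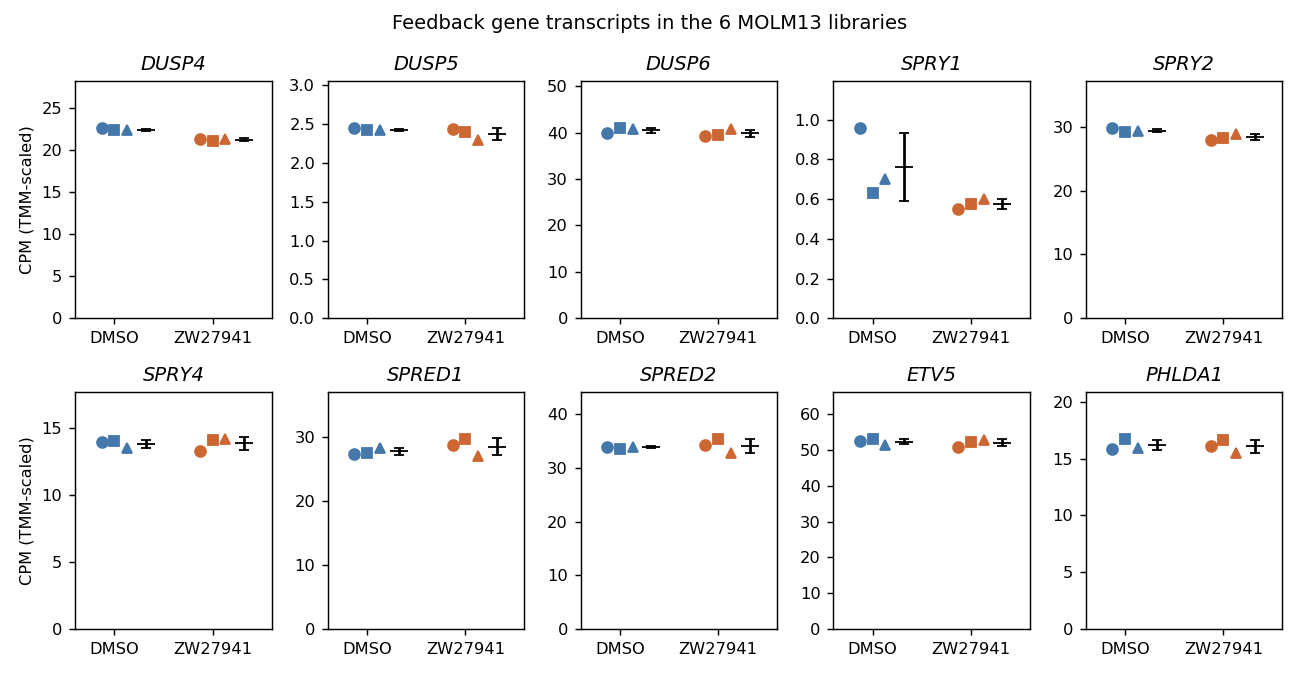
The CPM of each of the 10 feedback genes (vertical axes, each with its own range) is plotted for the 3 DMSO and the 3 ZW27941 libraries, with points for libraries and bars for the mean and SD. The points of the groups stand apart for DUSP4, SPRY1 and SPRY2, all with the lower values on ZW27941, and overlap for the other 7 genes.

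The Sprouty genes encode membrane-associated inhibitors of receptor tyrosine kinase signalling. SPRY2 (chr13:80335976-80340951, minus strand) had 29.8, 29.2 and 29.4 CPM on DMSO and 28.0, 28.3 and 28.98 CPM on ZW27941. The groups did not overlap, although the highest ZW27941 library came within the width of the DMSO group of its lowest library, and the log2 fold change was -0.052 (SE 0.030, 95% confidence interval -0.11 to 0.010, edgeR adjusted p = 0.208). SPRY4 (chr5:142310427-142326455, minus strand) had 13.9, 14.04 and 13.5 CPM on DMSO and 13.3, 14.1 and 14.1 CPM on ZW27941. Its lowest and its highest libraries were both ZW27941 libraries, and the log2 fold change was 0.0033 (SE 0.041, 95% confidence interval -0.082 to 0.088, edgeR adjusted p = 0.961).

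SPRY1 (chr4:123396795-123403760, plus strand) had the fewest counts of the 10 genes, 83 to 137 in a library. It had 0.956, 0.630 and 0.700 CPM on DMSO and 0.549, 0.576 and 0.601 CPM on ZW27941. The groups did not overlap, but DMSO replicate 1 stood well above the other 5 libraries. The log2 fold change was -0.40 (SE 0.16, 95% confidence interval -0.74 to -0.069, edgeR adjusted p = 0.0633), which was -0.21 (adjusted p = 0.381) without DMSO replicate 1 and -0.52 (adjusted p = 0.0311) without DMSO replicate 2. With upper quartile scaling the value was -0.43 (adjusted p = 0.0479), and over all 9 alternatives the adjusted p ran from 0.0479 to 0.117.

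Groups that did not overlap were found in 3 of the 10 genes, DUSP4, SPRY1 and SPRY2, all lower on ZW27941, where 41.6% of all genes tested had groups apart and 19.9% had them apart with the lower values on ZW27941.

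The Spred genes encode relatives of Sprouty that bring neurofibromin, which switches RAS off, to the membrane. SPRED1 (chr15:38252326-38357249, plus strand) had 27.4, 27.5 and 28.4 CPM on DMSO and 28.7, 29.7 and 27.1 CPM on ZW27941. SPRED2 (chr2:65310851-65432637, minus strand) had 33.9, 33.6 and 34.0 CPM on DMSO and 34.3, 35.4 and 32.7 CPM on ZW27941. In both genes ZW27941 replicate 2 was the highest and ZW27941 replicate 3 the lowest of all 6 libraries, so that the spread on ZW27941 (SD 1.33 CPM for SPRED1 and 1.32 CPM for SPRED2) was wider than on DMSO (SD 0.523 and 0.207 CPM). ZW27941 replicate 3 also had the most reads aligned to several places, 5.25% against 3.63% to 4.07% in the other libraries, and the part of this in the 2 values was not tested. The log2 fold change was 0.037 for SPRED1 (SE 0.034, 95% confidence interval -0.034 to 0.11, edgeR adjusted p = 0.458) and 0.012 for SPRED2 (SE 0.031, 95% confidence interval -0.054 to 0.077, edgeR adjusted p = 0.818).

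ETV5 encodes an ETS transcription factor that ERK induces (chr3:186046308-186110318, minus strand). It had 52.6, 53.1 and 51.5 CPM on DMSO and 50.9, 52.3 and 52.9 CPM on ZW27941, with a log2 fold change of -0.0098 (SE 0.027, 95% confidence interval -0.067 to 0.047, edgeR adjusted p = 0.827). PHLDA1, which encodes a pleckstrin homology-like domain protein induced by growth factors (chr12:76025447-76033932, minus strand), had 15.9, 16.7 and 15.96 CPM on DMSO and 16.1, 16.7 and 15.5 CPM on ZW27941. Its log2 fold change was -0.0086 (SE 0.039, 95% confidence interval -0.089 to 0.071, edgeR adjusted p = 0.893). In both genes the lowest library was on ZW27941, the highest was on DMSO and the groups overlapped. The annotation places a gene on the opposite strand over part of DUSP6, SPRY4, ETV5 and PHLDA1, and since no strand setting of the counting is given in the sources used here, reads of such partners cannot be told apart. On the same strand, ETV5 overlaps DGKG and SPRED2 overlaps AC012370.1.

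**Figure D2:**
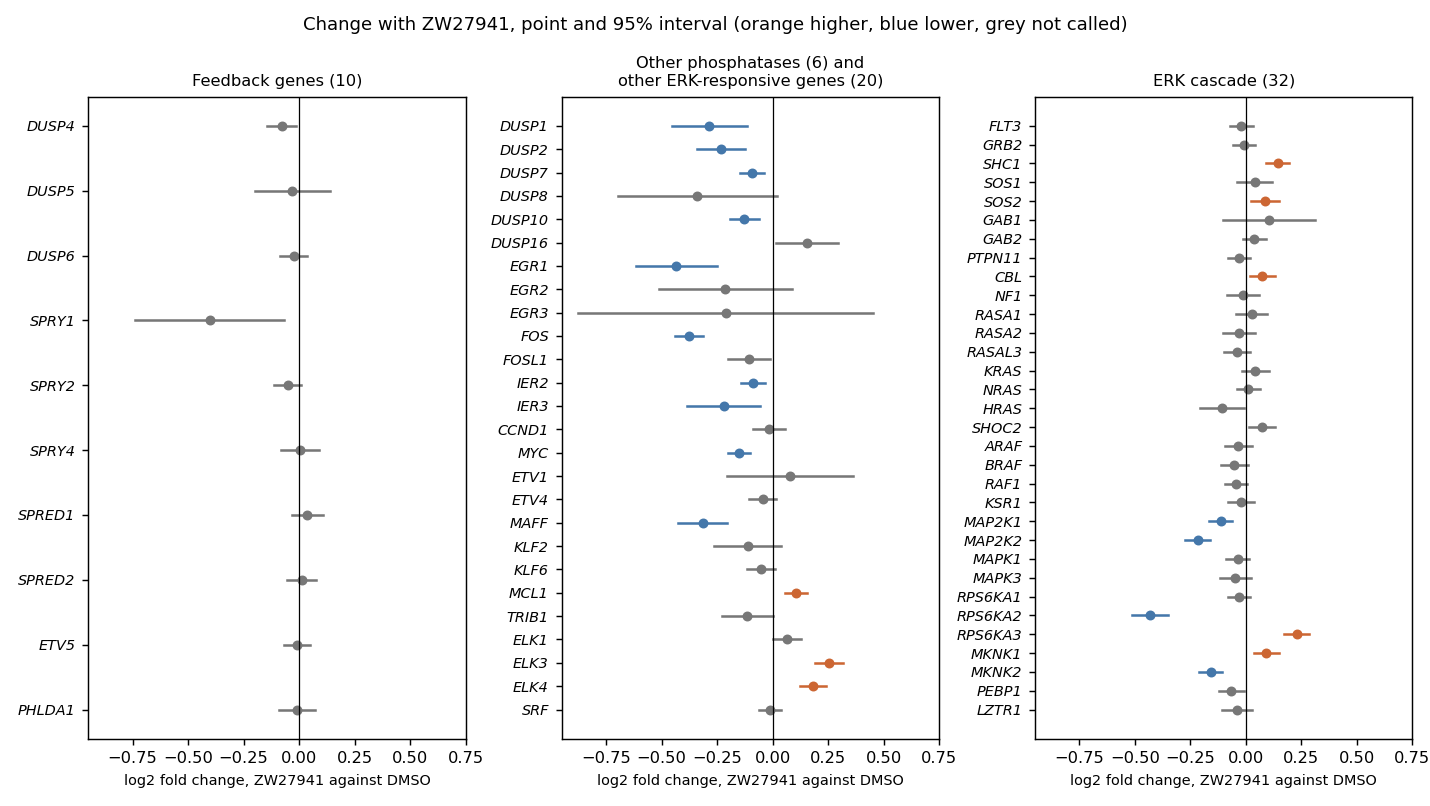
The log2 fold change on ZW27941 against DMSO (horizontal axis, points) is shown with its 95% confidence interval (lines). The left panel holds the 10 feedback genes. The middle panel holds 6 other MAP kinase phosphatase genes and 20 other ERK-responsive genes, and the right panel 32 cascade genes. Orange marks genes called higher, blue lower and grey not called. In the left panel, the intervals of the 8 genes over 10 CPM lie between -0.14 and 0.11. Those of SPRY1 and DUSP5, the feedback genes with the lowest levels, are the widest there.

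The intervals bound what could have gone unseen. For the 8 genes over 10 CPM, the confidence intervals of the fold lay between 0.905 and 1.08. Among the 2504 genes called in the same range of 10 to 60 CPM, the median absolute log2 fold change was 0.15 and the 10th percentile was 0.095, with a median SE of 0.033 over all genes of the range. The SEs of the 8 genes, 0.027 to 0.041, were thus of the size usual at this level. In the main fit, changes of the median size of the called genes lay outside the intervals of all 8 genes. For DUSP4 the margin was narrow, with a lower bound of -0.1436 against a median size of 0.147. Against the same median size, it did not hold for DUSP4 with upper quartile scaling (log2 fold change -0.10, SE 0.031) or RLE scaling (-0.0820, SE 0.0315). Nor did it hold for DUSP4 with DESeq2 (-0.0820, SE 0.0371), the likelihood ratio test (-0.0783, SE 0.0359) or the replicate block (-0.0785, SE 0.0357). Changes near the 10th percentile lay inside the intervals of DUSP4, SPRY2 and SPRED1. For SPRY1 and DUSP5 the intervals were wider and reached down to -0.74 and -0.20.

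**Figure D3:**
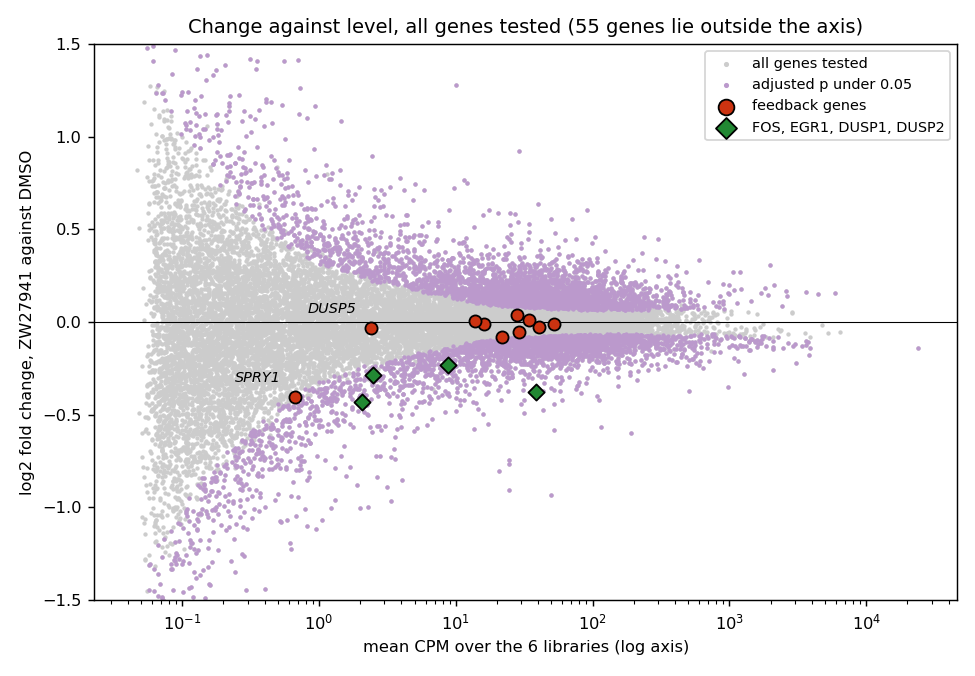
The log2 fold change on ZW27941 against DMSO (vertical axis) is plotted against the mean CPM (horizontal axis, log scale) for all genes tested. The 10 feedback genes and FOS, EGR1, DUSP1 and DUSP2 are marked. The feedback genes over 10 CPM lie along 0, between -0.078 and 0.037. FOS at -0.38, and RPS6KA2 at -0.43, which is not marked, lie below them within the same range of CPM.

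The same enzyme family has members outside the 10 genes. Of 7 other MAP kinase phosphatase genes, 6 were tested, 4 were lower on ZW27941, where 13.8% of all genes were lower, and 0 were higher, where 16.3% were higher. The difference between these phosphatases and the 10 genes was not tested. DUSP2, a nuclear phosphatase of blood cells, had 9.55, 9.54 and 9.28 CPM on DMSO and 7.93, 7.80 and 8.44 CPM on ZW27941 (log2 fold change -0.23, SE 0.052, edgeR adjusted p = 0.00175). DUSP1, an immediate early phosphatase gene, went from 2.74 ± 0.0845 to 2.25 ± 0.0737 CPM (SD, n = 3 each, log2 fold change -0.28, edgeR adjusted p = 0.0103). DUSP10, whose enzyme acts mainly on JNK and p38, went from 22.5 ± 0.281 to 20.6 ± 0.221 CPM (log2 fold change -0.13, edgeR adjusted p = 0.00428), and DUSP7, a cytoplasmic relative of DUSP6, from 95.8 ± 2.05 to 89.9 ± 0.554 CPM (log2 fold change -0.092, edgeR adjusted p = 0.00792). DUSP16 had a log2 fold change of 0.16 (adjusted p = 0.0887) and DUSP8 of -0.34 (adjusted p = 0.149). DUSP4, with a log2 fold change of -0.078 and an adjusted p of 0.0647, lay close to DUSP7 in size, and the difference between the changes of these 2 genes was not tested.

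Another list of 22 genes held genes known to respond to ERK, together with SRF and its ETS partners ELK1, ELK3 and ELK4. These partners were listed as factors of the pathway and not as established responsive transcripts. Of the 22, 20 were tested, 3 were higher, where 16.3% of all genes were higher, and 6 were lower, where 13.8% were lower. The median log2 fold change was -0.097. FOS, an immediate early gene whose product is part of the AP-1 factor, fell from 43.7 ± 1.15 to 33.7 ± 0.517 CPM (SD, n = 3 each), with 42.5 to 44.8 CPM in the DMSO libraries and 33.3 to 34.2 CPM in the ZW27941 libraries (log2 fold change -0.38, SE 0.030, edgeR adjusted p = 5.4e-09). MYC fell from 379 ± 7.20 to 341 ± 3.08 CPM (log2 fold change -0.15, edgeR adjusted p = 5.8e-05). The ETS factors ELK3 and ELK4, partners of SRF, rose from 34.0 ± 0.450 to 40.6 ± 1.12 CPM (log2 fold change 0.25, edgeR adjusted p = 1.4e-06) and from 101 ± 2.42 to 115 ± 4.16 CPM (log2 fold change 0.18, edgeR adjusted p = 3.9e-05). EGR1, named here after its values were seen, had 2.37, 2.48 and 2.27 CPM on DMSO and 1.86, 1.69 and 1.71 CPM on ZW27941 (log2 fold change -0.43, edgeR adjusted p = 0.000671). ETV4, the ETS factor nearest to ETV5, did not pass, at 35.6 ± 0.988 and 34.5 ± 0.514 CPM (log2 fold change -0.045, edgeR adjusted p = 0.286).

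Of 34 genes of the cascade itself, from receptor adaptors to ERK substrates, 32 were tested, 5 were higher and 4 were lower, with a median log2 fold change of -0.027. These counts lie near the shares of all genes, 16.3% higher and 13.8% lower, and are no result about the cascade. Among the ribosomal S6 kinases, which ERK phosphorylates, RPS6KA2 fell from 15.3 ± 0.207 to 11.3 ± 0.132 CPM (SD, n = 3 each, log2 fold change -0.43, edgeR adjusted p = 5.0e-08). RPS6KA3 rose from 114 ± 2.46 to 133 ± 3.60 CPM (log2 fold change 0.23, edgeR adjusted p = 1.2e-06). RPS6KA1, the highest of them at 417 ± 7.96 CPM on DMSO, was not called (log2 fold change -0.032, edgeR adjusted p = 0.345). MAP2K2, 1 of the MEK genes, fell from 139 ± 1.51 to 120 ± 4.003 CPM (log2 fold change -0.22, edgeR adjusted p = 2.3e-06). MKNK2, a kinase of the translation factor eIF4E, fell from 148 ± 2.95 to 132 ± 1.36 CPM (log2 fold change -0.16, edgeR adjusted p = 4.0e-05). MKNK1, named after its values were seen, rose (log2 fold change 0.092, edgeR adjusted p = 0.0112). The other MEK gene, MAP2K1, named after its values were seen, fell as well (log2 fold change -0.11, edgeR adjusted p = 0.00141). MAPK3, which encodes an ERK kinase, had a log2 fold change of -0.048 (adjusted p = 0.320), and FLT3, the mutated receptor, of -0.022 (adjusted p = 0.565). These are RNA levels, and no phosphorylated protein was analysed here.

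Of 9 listed paralogs and antisense or intronic RNAs of the 10 genes, 8 were in the count tables, 7 were tested, 1 was higher and 0 were lower, where 16.3% of all genes were higher and 13.8% lower. The gene that rose was PHLDA2, a paralog of PHLDA1, from 6.93 ± 0.434 to 8.22 ± 0.458 CPM (SD, n = 3 each, log2 fold change 0.25, SE 0.061, edgeR adjusted p = 0.00376). SPRY3, at 1.33 ± 0.0312 CPM on DMSO, had a log2 fold change of -0.16 (adjusted p = 0.280), SPRED3, at 1.01 ± 0.0994 CPM on DMSO, of -0.043 (adjusted p = 0.822), and PHLDA3, at 61.2 ± 2.25 CPM on DMSO and 58.1 ± 0.736 CPM on ZW27941, of -0.075 (adjusted p = 0.0534).

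Levels of the 10 genes were compared per kilobase of exon sequence. SPRY2 was the highest on DMSO, at 9.70 ± 0.0945 CPM per kilobase (SD, n = 3), before ETV5 at 9.03 ± 0.135, DUSP6 at 8.75 ± 0.118 and SPRED2 at 6.56 ± 0.0402 CPM per kilobase. SPRED1 followed at 3.36 ± 0.0633, DUSP4 at 3.09 ± 0.0166, SPRY4 at 2.10 ± 0.0461 and PHLDA1 at 2.00 ± 0.0573 CPM per kilobase. DUSP5, at 0.928 ± 0.00485, and SPRY1, at 0.192 ± 0.0433 CPM per kilobase, were the lowest. The order was the same on ZW27941. Neighbouring genes whose libraries overlapped were SPRY4 and PHLDA1 in both groups, and ETV5 and DUSP6 on ZW27941 only. The summed level of the 10 genes was 239 to 241 CPM in the DMSO libraries and 235 to 240 CPM in the ZW27941 libraries.

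**Figure D4:**
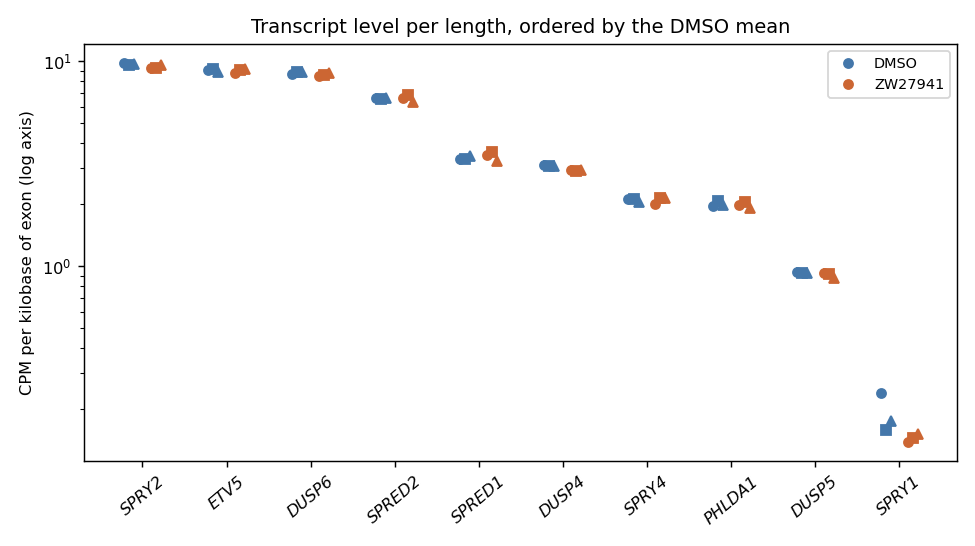
The level of each of the 10 genes in CPM per kilobase of exon sequence (log axis) is shown for the DMSO and the ZW27941 libraries, with a point for each library. The genes run from SPRY2 at 9.70 to SPRY1 at 0.192 CPM per kilobase on DMSO, in the same order on ZW27941.

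Since METTL3 methylates adenosine within a short context whose core is GGACU in RNA, the DNA letters GGACT were counted on the sense strand of the longest coding transcript of each gene. The 10 transcripts held a median of 1.41 GGACT per kilobase, against a median of 0.942 over the 12922 tested genes matched to a transcript, whose quartiles were 0.575 and 1.41. DUSP4 had the most, 11 in 5537 bases (1.99 per kilobase), before SPRY1 with 1.92 and SPRY2 with 1.85 per kilobase, and SPRED1 the fewest, 5 in 7780 bases (0.643 per kilobase). A GGACT is a possible site only, and no m6A was measured in these libraries.

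METTL3 itself, which the degrader removes as a protein, had 122 ± 1.17 CPM on DMSO and 123 ± 4.96 CPM on ZW27941 (SD, n = 3 each, log2 fold change 0.013, edgeR adjusted p = 0.765), so its RNA does not check the labels. The libraries held 143454176 to 178744976 counts on genes. These totals are well above the read depth per sample that the published methods give, and the reason is not given in the sources used here. All 10 markers of MOLM13 and monocytic cells were above 1 CPM, and their sum was 2590 to 2651 CPM on DMSO and 2861 to 2928 CPM on ZW27941. Of the 10, 6 were higher, where 16.3% of all genes were higher, and 0 were lower, where 13.8% were lower. LYZ, the marker with the highest level, went from 963 ± 31.2 to 1160 ± 34.7 CPM, and CD33, FLT3, HOXA9 and MEIS1 were not called. The 3 T cell markers summed to at most 0.318 CPM, the 3 B cell markers to at most 2.26 CPM and the 3 fibroblast markers to at most 3.53 CPM, and 2 of 3 erythroid markers were at 0 in every library. The 4 epithelial markers summed to 20.1 to 20.4 CPM on DMSO and 17.2 to 18.4 CPM on ZW27941, nearly all KRT8 and KRT18, and the 3 endothelial markers to 255 to 265 and 324 to 332 CPM, nearly all PECAM1, which monocytic cells express too, with CDH5 at 0. The part of the higher monocytic sum in the values of the feedback genes was not tested.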

How the data were processed

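The authors deposited raw HTSeq counts per gene symbol, 1 column of counts per library, with no normalization. The submitters' processing notes name HISAT2, SAMtools 1.19.2, HTSeq 2.0.3 and hg38, and the annotation and strand setting are not given in the sources used here. The 5 HTSeq summary entries, for reads that fell on no single gene, made up 37.4% to 39.8% of a library's reads and were left out of library sizes and tests. Of 56305 genes, 21603 had no count in any library.

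The count test was that of edgeR 4.0.16, run in R 4.3.3 (TMM factors 0.994 to 1.01, filterByExpr, the two-sided quasi-likelihood test, Benjamini-Hochberg adjustment over the 20399 genes tested, threshold 0.05), fitted on all 6 libraries and all genes without a covariate. The common biological coefficient of variation was 3.11%. CPM used TMM-scaled library sizes, and the log2 fold change is ZW27941 minus DMSO. The fit was tested on simulated counts first. The labels do not say whether the 3 libraries of a group came from separate cultures, so p-values measure the spread between these libraries, which may be technical. No 2 libraries of a group agreed within sampling noise, and the labels name no batch that separates the libraries. ZW27941 replicate 3 stood furthest from its group. Its pairs had a chi-squared per degree of freedom of 11.5 and 7.78, against 4.33 to 5.13 for the other pairs within a group. Replicate numbers are shared by the groups, but same-numbered libraries did not deviate together.

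The 10 genes, the 4 other lists and the tests were chosen with earlier results of these data known. All 10 genes were named, with the 4 genes of lowest p among those called in each other list, and METTL3. Exon lengths and gene positions came from GENCODE 29 (GRCh38), promoters from RefSeq (GRCh38.p14), and DUSP5P1 was aligned to DUSP5 with BLAST 2.17.0. No promoter window was matched for DUSP4, DUSP5 and ETV5. Alternatives were 3 other scalings, DESeq2 1.42.0, edgeR's likelihood ratio test, no filter or at least 10 counts in every library, thinning to equal depth, a replicate block and leaving out each library.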

Additional observations from a re-analysis of the deposited data

How the results depend on the processing

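The count of feedback genes higher on ZW27941 was 0 under all 9 alternatives and without each library. The count lower was 0 except with upper quartile scaling, where it was 2 (DUSP4 and SPRY1), and ran from 0 to 1 over the leave-one-out fits (SPRY1, without DMSO replicate 2). Genes close to 0 changed sign without passing: SPRY4 was -0.00041 with RLE scaling, -0.020 with upper quartile scaling and -0.00045 with DESeq2 (leave-one-out -0.016 to 0.034), SPRED2 was -0.012 with upper quartile scaling (leave-one-out -0.015 to 0.038), ETV5 was 0.00016 with library size only (leave-one-out -0.025 to 0.0058) and PHLDA1 was 0.0016 with library size only and 0.00035 after thinning (leave-one-out -0.035 to 0.016). Summing DUSP5 with DUSP5P1 gave -0.39, which passed, since DUSP5P1 holds most of the summed counts. Cascade genes higher numbered 2 with upper quartile scaling, 3 with DESeq2 and 3 with the replicate block, and cascade genes lower numbered 7 with upper quartile scaling. Over the leave-one-out fits, cascade genes higher ran from 2 to 7. They numbered 2 without DMSO replicate 1 and 3 without DMSO replicate 2, ZW27941 replicate 1 or ZW27941 replicate 2. Without ZW27941 replicate 3 they numbered 7, and cascade genes lower numbered 6. Paralogs lower numbered 1 with RLE or upper quartile scaling, DESeq2 or at least 10 counts in every library, and 0 to 1 over the leave-one-out fits. Apart from the construction of the sum, the cause of these changes was not tested. The genes named by rule in the other lists, with EGR1, MAP2K1 and DUSP5P1, kept their direction and call under all 9 alternatives and without each library.

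Same-numbered libraries correlated at -0.0099, 0.0031 and 0.043 in their deviations from the group means, so the labels' numbers did not pair them. With the number as a replicate block, 6010 genes passed in place of 6149, and no other call named here changed. At 83 to 137 counts per library, depth limits SPRY1 most.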
